A study of Bos taurus with 2 samples.

Results

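The genes described here are 6 genes of fat metabolism, out of 16174 genes with at least 1 read in either library of a study of longissimus muscle development in cattle. They were taken from a fixed list of Ensembl gene identifiers, with no threshold on their values: FASN (ENSBTAG00000015980), SCD (ENSBTAG00000045728), LPL (ENSBTAG00000012855), FABP4 (ENSBTAG00000037526), DGAT1 (ENSBTAG00000026356) and LEP (ENSBTAG00000014911). The symbols came with that list, since the deposited tables carry identifiers only. As a check, the FASN gene model had to be at least 7000 nt long and was 8205 nt, and the FABP4 model had to be under 1500 nt and was 625 nt. The other models measured 997 nt for SCD, 3573 nt for LPL, 1545 nt for DGAT1 and 2931 nt for LEP.

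The longissimus is the long back muscle beside the spine, and the animals were Qinchuan cattle, a Chinese beef breed. The embryonic library (Emb135) was made from embryos at 135 days after insemination, and the adult library (30M) from animals 30 months after birth. No treatment or engineered allele is labelled. RNA of 3 animals was pooled for each stage before 1 library was made, so animals cannot be separated and no stage has a replicate. No test between stages was therefore possible, and all intervals below are 95% intervals of counting error for independent reads, which cover neither differences between animals nor between library preparations. The files gave 17736812 uniquely assigned reads for Emb135 and 19970007 for 30M.

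Fat in muscle is stored as triglyceride, mostly in fat cells that lie between the muscle fibres and give beef its marbling. Fatty acids for it are either made in the cell or taken up from blood. In synthesis, fatty acid synthase (FASN) builds saturated fatty acids and stearoyl-CoA desaturase (SCD) introduces a double bond into them. In uptake, lipoprotein lipase (LPL) on the capillary wall releases fatty acids from circulating lipoproteins, and fatty acid binding protein 4 (FABP4), abundant in mature fat cells and also made by capillary endothelium, carries them inside the cell. Diacylglycerol acyltransferase 1 (DGAT1) joins the last fatty acid to complete the triglyceride, and LEP encodes leptin, the hormone that fat cells release in relation to the fat they hold.

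The 6 genes did not move together between the stages. The uptake genes LPL and FABP4 were higher in the 30M library, 10.7-fold and 7.99-fold by share of reads, whereas the synthesis gene FASN was 3.39-fold lower. SCD was 1.61-fold higher in 30M, DGAT1 was nearly equal, and LEP had too few reads at both stages for a direction. All 6 genes had reads in both libraries.

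**Figure D1:**
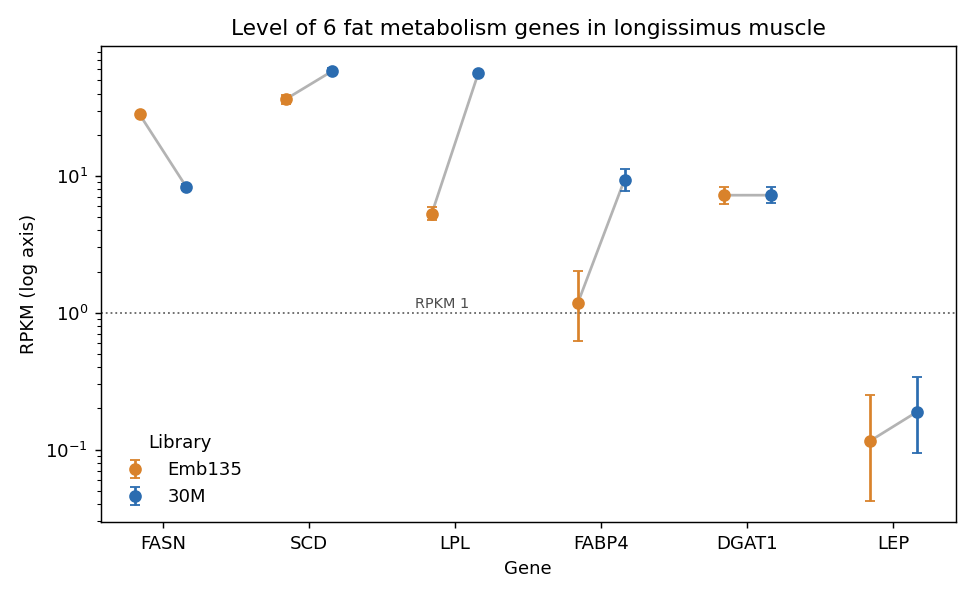
Level of each gene in the Emb135 library (orange) and the 30M library (blue), in RPKM (reads per unit of model length and of library depth) on a log axis; bars are exact 95% Poisson intervals of the reads, and the dotted line marks an RPKM of 1. LPL and FABP4 lie higher in 30M and FASN lower, DGAT1 lies at 7.23 in both, and LEP lies below an RPKM of 1 in both.

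FASN was read 4100 times in Emb135 and 1361 times in 30M. Scaled by the length of its model and by the unique reads of the library, these reads gave an RPKM of 28.2 (27.3 to 29.0) and 8.31 (7.87 to 8.76), respectively. The embryonic library was thus the higher one and the intervals did not overlap. The share of reads was 3.39-fold lower in 30M, with an interval of 3.19 to 3.61. On the log2(RPKM + 0.5) scale, whose added 0.5 makes the ratios of weakly read genes smaller, the difference was -1.70. FASN took place 2672 of 15522 genes by RPKM in Emb135 and place 5442 of 14853 in 30M.

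SCD, which acts after FASN in the same route, went the other way in value. It had 642 reads in Emb135 and 1163 in 30M. Its RPKM was 36.3 in Emb135 (33.6 to 39.2) and 58.4 in 30M (55.1 to 61.9). These values were the highest of the 6 genes in either library, although in 30M SCD did not differ from LPL beyond counting error. The 1.61-fold ratio had an interval of 1.46 to 1.77, which excludes equality but stays under the 2-fold size used to call a gene. Its place by RPKM was 2110 in Emb135 and 1117 in 30M. The SCD model of 997 nt is short for a message known to carry a long 3′ untranslated region, so reads from any part outside the model would not be in these counts.

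LPL had the largest ratio of the 6 genes. It was read 335 times in Emb135 and 4048 times in 30M. Its RPKM was 5.29 in Emb135 (4.74 to 5.88) and 56.7 in 30M (55.0 to 58.5), a ratio of 10.7 with an interval of 9.60 to 12.0. In the adult library LPL stood beside SCD near the top of the 6 genes, at place 1150, after place 8303 in the embryonic library. On the log2(RPKM + 0.5) scale its ratio of 3.31 was equalled or exceeded by 211 other genes, 1.65% of those with an RPKM of 1 or more at one stage or the other.

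FABP4 rose with LPL, from a much lower level. Its 13 reads in Emb135 gave an RPKM of 1.17 (0.624 to 2.01), and its 117 reads in 30M gave 9.37 (7.75 to 11.2). The ratio was 7.99, and the 13 embryonic reads left it with a wide interval of 4.50 to 15.5. On the log2(RPKM + 0.5) scale, where the pseudocount weighs on the low embryonic value, the ratio was 2.56, and 3.26% of other genes reached it. FABP4 belongs to a family of similar genes, and reads shared with a relative would be missing from uniquely assigned counts by an amount the tables do not show.

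DGAT1, the enzyme of the last step of triglyceride synthesis, was nearly level. It had 198 reads in Emb135 and 223 in 30M, and its RPKM was 7.23 at both stages, with intervals of 6.25 to 8.30 and 6.31 to 8.24. The ratio of read shares lay at equality, and its interval of 0.822 to 1.22 leaves room for a change of that size in either direction. In the RefSeq table (assembly ARS-UCD2.0) the annotated span of DGAT1 overlaps one end of its neighbour HSF1, and without strand information reads from the overlap cannot be assigned to either gene with certainty. FASN holds the whole of the microRNA gene MIR10179 within its span, and the other 4 genes overlapped no annotated gene.

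LEP was barely read in either library, with 6 reads in Emb135 and 11 in 30M. Its RPKM was 0.115 (0.0424 to 0.251) and 0.188 (0.0938 to 0.336), and the intervals overlapped. The ratio of 1.63 had an interval of 0.552 to 5.36, so a difference was not detectable at this depth. Given the 6 reads in Emb135, 18 reads or more in 30M, a 2.66-fold higher share, would have been needed for the interval to exclude equality. Even 1 read in 30M would not have excluded equality in the other direction, only 0 reads. LEP and FABP4 are both known from fat cells, FABP4 also from capillary endothelium. Per length FABP4 was 10.2 times as abundant as LEP in Emb135 and 49.9 times in 30M, ratios that rest on 6 and 11 LEP reads.

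With no replicates, calls were made on size. A called gene differed 2-fold or more on the log2(RPKM + 0.5) scale, had an RPKM of 1 or more where it was higher, and had a counting interval that excludes equality. LPL and FABP4 were called higher, FASN lower, SCD and DGAT1 neither, and LEP did not reach the minimum RPKM. Among all 12763 genes that reached it, 13.0% were called higher and 32.6% lower. A call of lower, such as that of FASN, was thus common in this comparison, and 1911 of the other genes had a log2 ratio as low as FASN or lower. The median log2 ratio of the 6 genes was 0.42, with a range of -1.70 to 3.31, and that of all 12763 genes was -0.53. Without LEP, which is not among the 12763, the median was 0.68, and leaving out each of the 6 genes in turn gave 0.16 to 0.68. With a 4-fold size in place of 2-fold, LPL and FABP4 were called higher, as were 5.47% of all genes, and FASN was not among the 10.3% called lower.

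**Figure D2:**
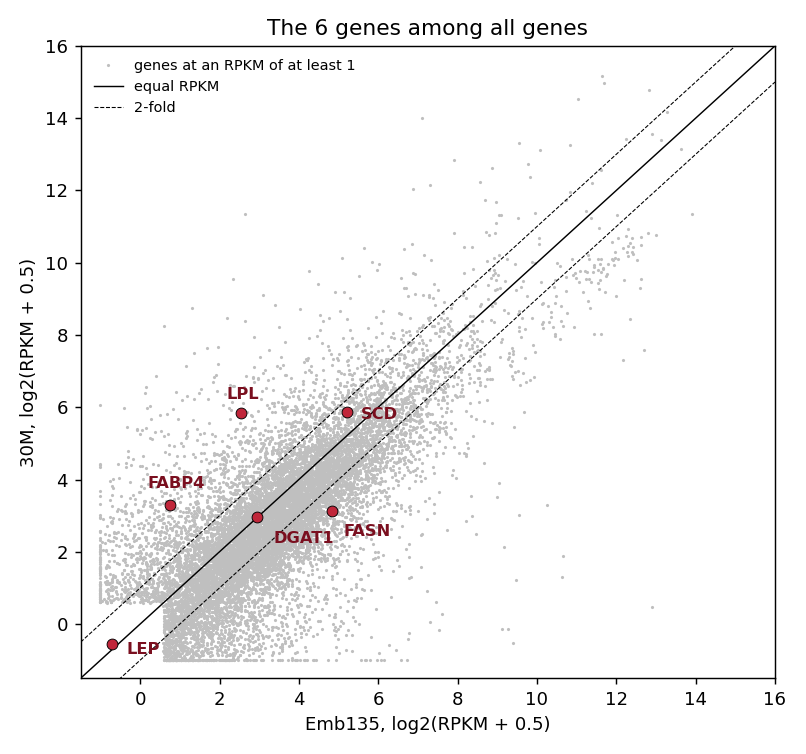
Each gene with an RPKM of 1 or more at one stage or the other (grey) by its log2(RPKM + 0.5) in Emb135 (horizontal axis) and 30M (vertical axis), with the 6 genes in red, LEP included although it lies below that minimum. The solid line marks equal RPKM and the dashed lines a 2-fold ratio; LPL and FABP4 lie far above the upper dashed line, FASN below the lower one, and DGAT1 on the line of equality.

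RPKM is relative to all reads of a library, so a general fall of many genes and a larger share of reads held by a few abundant genes cannot be told apart here. The 50 most abundant genes took 26.7% of all reads in the embryonic library and 43.1% in the adult one. Set against the median of all genes rather than against equality, SCD and DGAT1 were in the upper part of the distribution. For SCD 17.3% and for DGAT1 32.3% of other genes had a ratio as high or higher. Rescaling 30M to bring the median ratio to equality, over genes with an RPKM of 1 or more at both stages, raised its values 1.40-fold.

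After that rescaling SCD was 2.25-fold higher in 30M and was called higher, beside LPL at 14.98-fold and FABP4 at 11.2-fold. FASN remained called lower, at 2.43-fold. DGAT1 moved to 1.40-fold higher and was not called. Among all genes 20.0% were then called higher and 21.0% lower. The direction of FASN, LPL and FABP4 therefore held on both scales, and the call for SCD depended on the scale.

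**Figure D3:**
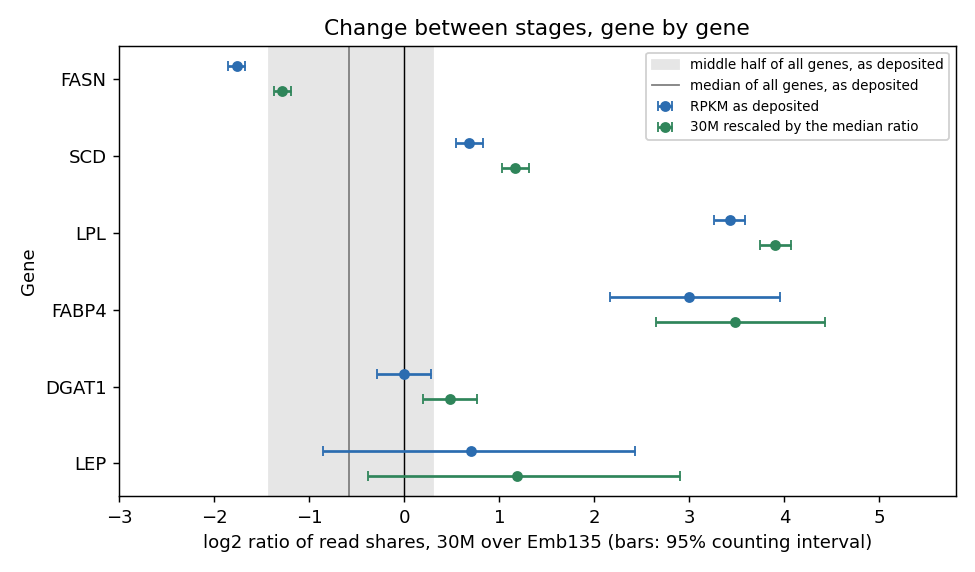
log2 ratio of read shares, 30M over Emb135, for each gene (points, with exact 95% counting intervals as bars), with RPKM as deposited (blue) and after 30M was rescaled by the median ratio (green). The grey band and line give the range from the lower to the upper quartile and the median of all genes as deposited; LPL and FABP4 lie to the right of the band and FASN to its left on the deposited scale.

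Genes of like abundance gave a similar picture. Among the 2101 other genes whose mean log2(RPKM + 0.5) over the libraries lay within 0.5 of that of LPL, 1.29% had a ratio as high or higher. For FABP4 it was 3.26% of 2424 genes. For FASN 10.6% of 2220 genes had a ratio as low or lower. The median ratio of these groups of genes lay between -0.57 for FABP4 and -0.43 for LPL, with FASN between them at -0.45.

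The balance between the genes can be read within a library, where no scaling between libraries enters. In Emb135 the RPKM of SCD was 1.29 times that of FASN, and in 30M it was 7.03 times. The ratio of SCD to FASN thus rose 5.46-fold (4.86 to 6.13) from the embryonic to the adult library, although both enzymes serve the same synthesis route. The RPKM of LPL was 0.188 times that of FASN in Emb135 and 6.83 times in 30M, a 36.4-fold rise (32.0 to 41.5), the largest of the 15 pairs.

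LPL and FABP4 kept a closer ratio to each other. LPL was 4.51 times as abundant as FABP4 per length in Emb135 and 6.05 times in 30M. The change of 1.34-fold had an interval of 0.687 to 2.42, so no change was detectable, and a change within those bounds is not excluded by the reads. Of the 15 pairs, 12 changed beyond their own counting interval, and 11 did so with intervals widened for 15 comparisons. Pairs of other genes were not counted in this way, so whether 12 of 15 is many for these libraries was not tested. The 3 pairs inside their intervals were LPL with FABP4, SCD with LEP and DGAT1 with LEP, and the pair that dropped out with widened intervals was FABP4 with LEP. With 2 reads taken as 1 fragment, 10 pairs remained beyond their interval, and LPL with LEP and FABP4 with LEP were the ones lost. With so few LEP reads, the pairs that hold LEP have wide intervals.

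The order of the genes by level changed accordingly. In Emb135 it ran from SCD through FASN, DGAT1, LPL and FABP4 to LEP, and each neighbouring pair differed beyond counting error. In 30M it ran from SCD through LPL, FABP4, FASN and DGAT1 to LEP. There SCD and LPL did not differ beyond counting error (ratio 1.03, 0.964 to 1.10), nor FABP4 and FASN (1.13, 0.926 to 1.36), nor FASN and DGAT1 (1.15, 0.997 to 1.33). FASN, 3.90 times as abundant as DGAT1 in the embryonic library, was thus close to it in the adult one.

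**Figure D4:**
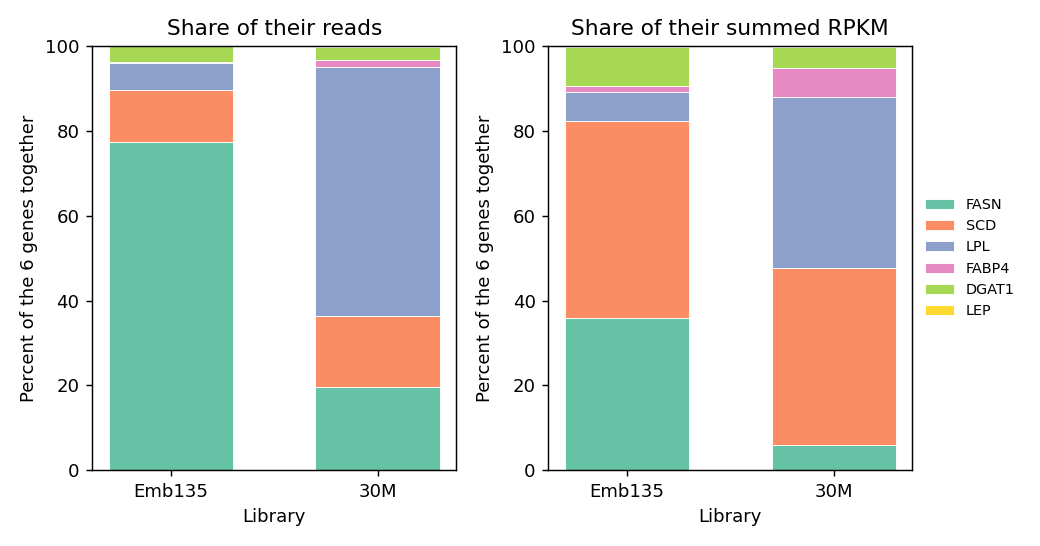
Share of each gene in the reads (left) and in the summed RPKM (right) of the 6 genes together, in percent, for the Emb135 and 30M libraries. FASN held 77.4% of these reads in Emb135 and 19.7% in 30M, LPL 6.33% and 58.5%; LEP is too small to see.

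Together the 6 genes had 5294 reads in Emb135, 0.0298% of the library (exact interval 0.0290 to 0.0307%), and 6923 in 30M, 0.0347% (0.0339 to 0.0355%). As shares of all reads the totals lay close together, with intervals that did not overlap, while the make-up differed. FASN, the longest model, held 77.4% of these reads in Emb135 and 19.7% in 30M. LPL held 6.33% and 58.5%. Per length, SCD held 46.4% of the summed RPKM in Emb135 and 41.7% in 30M, FASN went from 36.0% to 5.92%, and LPL from 6.75% to 40.5%. The summed RPKM, in which the long FASN model does not weigh more, was 78.3 in Emb135 and 140.2 in 30M. The totals thus lay further apart per length than by reads.

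The deposited coverage, taken to be the percentage of a model that lies under at least 1 read, gave a second view of each gene. FASN was covered over 99.4% of its model in Emb135 and 99.2% in 30M, so reads reached nearly the whole model at both stages. Its depth averaged 45.0 and 14.9 reads per base. At such depths coverage is nearly full and cannot show how the reads were spread along the model. SCD was covered over 98.7% and 99.6%. For LPL, whose reads rose 10.7-fold by share, coverage was 95.4% and 97.0%. These 3 genes were thus read along nearly their full models at both stages.

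FABP4 coverage was 75.2% in Emb135, with 155 nt unread, and 89.8% in 30M, with 64 nt unread. Reads of 90 nt spread evenly would have covered 84.6% and 100.0%. Other genes with a like number of reads per nt in the same library (within 1.5-fold) had a median coverage of 72.2% in Emb135 and 96.9% in 30M, so FABP4 lay near them in the embryonic library and below their lower quartile of 92.7% in the adult one. DGAT1 was covered over 88.0% in Emb135 and 85.5% in 30M, and 185 and 224 nt were unread although its depth averaged 11.5 and 13.0 reads per base. Genes of like read density had medians of 96.2% and 96.1%, and 16.4% and 12.0% of them were covered no more than DGAT1. Whether the same stretch was unread at both stages was not tested, since the tables give no positions.

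The 11 LEP reads in 30M covered 596 nt, against 526 nt for the 6 reads in Emb135. Even spread would have given 28.7% of the model in 30M and 16.8% in Emb135, and 20.3% and 18.0% were observed. On so few reads, LEP was covered less than even spread would give in 30M and slightly more in Emb135. In genes of like read density the median was 27.1% in 30M and 16.7% in Emb135. Of these genes, 16.4% in 30M and 59.3% in Emb135 were covered no more than LEP.

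**Figure D5:**
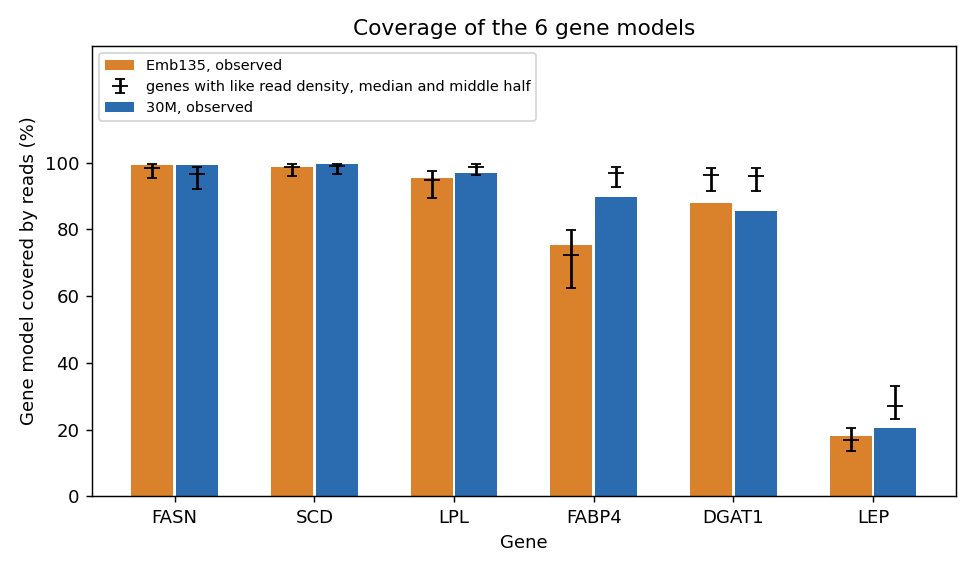
Percentage of each gene model covered by reads in Emb135 (orange bars) and 30M (blue bars); black marks give the median and the quartiles of genes with a like number of reads per nt in the same library. FASN, SCD and LPL were covered over at least 95.4% in both libraries, DGAT1 lay below the lower quartile of like genes in both, and LEP was covered over 18.0% and 20.3%.

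In bulk muscle, fewer cells of a type and less RNA per cell cannot be told apart. The share of fat cells, capillaries, muscle fibres or other cells in the tissue may differ between an embryo and an adult. The part of such differences in the ratios of LPL, FABP4 and FASN was not tested. Other markers of fat cells, muscle fibres, endothelium and blood, and the other genes of fatty acid synthesis, uptake and oxidation, were not analysed here because no table used here pairs their symbols with the deposited identifiers. The genes most like these members over both libraries can thus be given by identifier only. Nearest to LPL on the log2(RPKM + 0.5) scale was ENSBTAG00000016048, with RPKM values of 5.28 and 52.9 in Emb135 and 30M, and 3 genes lay within a distance of 0.25. Nearest to FASN was ENSBTAG00000018269, with values of 28.0 and 8.26, with 59 genes within that distance. With 2 libraries such likeness rests on 2 values per gene.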

How the data were processed

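Per the labels' protocols, muscle was frozen after slaughter, RNA of 3 animals per stage was pooled, polyadenylated RNA was captured and fragmented, and random-primed cDNA went onto an Illumina HiSeq 2000. The protocol says nothing of strand. Per the file headers, the deposited tables give for each gene the count of uniquely assigned reads, the length of the gene model, its coverage signal and the RPKM. The authors' counts summed exactly to the totals in the headers, and their RPKM was recomputed from count, length and total. For the aligner, the counting tool, the build and the annotation: not given in the sources used here. Unique counting leaves out reads shared by similar genes.

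The list of 6 identifiers sets no threshold on values, but it and the other lists were drawn up with earlier results of these data known. All 6 genes are named; of other genes, only the nearest to the members with the highest and the lowest log2 ratio. Identifiers were not matched to symbols by the RefSeq table (37063 genes, 0 with an Ensembl identifier). Ratios used a pseudocount of 0.5 RPKM, read ratios exact Clopper-Pearson intervals conditional on the gene's total, levels exact Poisson intervals, and pairs exact conditional intervals of the odds ratio (scipy 1.17.1). PCR copies make reads less independent than the intervals assume, and these cover counting error only. A trimmed mean of log ratios came from edgeR 4.0.16. The comparisons with genes of like abundance and like read density were chosen after seeing the data. On counts simulated for Emb135 against 30M over 16174 genes, with counting noise only, the calls found 98 of 100 genes with a 3-fold change, 100 of 100 with an 8-fold change, and took in 2 of 12139 unchanged genes. The changed genes were drawn from those with a mean RPKM of at least 2, so changes in weaker genes such as LEP were not simulated.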

Additional observations from a re-analysis of the deposited data

How the results depend on the processing

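The log2 ratio of each gene was recomputed under 14 alternatives: 6 scalings, a pseudocount of 0.1 or 1, a minimum RPKM of 5 or none, a 4-fold threshold, thinning of 30M to the Emb135 total, 2 reads taken as 1 fragment, and the covered length in place of the model length. LPL (3.20 to 3.86) and FABP4 (2.26 to 3.09) were called higher under all 14, and FASN (-1.75 to -1.18) was negative under all and called lower under all but the 4-fold threshold, at which its -1.70 was not called and 0 of the 6 genes were lower. SCD, at 0.68 as deposited, was called higher under 5 scalings: 1.16 by the median ratio, 1.20 by the trimmed mean, 1.23 by the median ratio over genes with reads in both libraries, 1.02 with the 75th percentile and 1.06 with totals without the 50 most abundant genes; with TPM it stayed uncalled at 0.79. DGAT1 (0.00040 to 0.52) and LEP (0.087 to 0.42) were never called. All 6 scalings raised the 30M values, and under each more of all genes were called higher than as deposited. Over all genes, 1665 (13.0%) were called higher as deposited and 698 (5.47%) at 4-fold. In the order of the 6 scalings above, the counts were 2581 (20.0%, median ratio), 2695, 2751, 2252, 2354 and 1824. Lower genes numbered 4167 as deposited, 1319 at 4-fold, and then 2714, 2589, 2527, 3097, 2976 and 3782. SCD thus passed the 2-fold size under scalings that also raised the count of all genes called higher. The summed share of the 6 genes in Emb135 and 30M was 0.0105% and 0.0202% of summed RPKM, and 0.0426% and 0.0645% of reads once the 50 leading genes of each library were left out, each time higher in 30M. The median of the 6 genes went from 0.42 to between 0.38 and 0.88 under the 14 alternatives. Pairs of genes beyond their counting interval numbered 12 with 30M thinned and 10 with 2 reads taken as 1 fragment. Coverage differed by at least 10 points for 1 gene, FABP4, and would have for 2, FABP4 and LEP, with reads spread evenly. No paired analysis was possible because there was a single library per stage, which also leaves none to drop. Depth limits LEP most, then the embryonic value of FABP4.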
